A study of Mus musculus with 9 samples.

Results

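The fibroblast growth factor (FGF) genes examined here were 4 ligand genes, Fgf5, Fgf8, Fgf9 and Fgf18, and the 4 receptor genes, Fgfr1 to Fgfr4. Every probe set annotated to 1 of these 8 genes was taken and read on its own, which gave 19 probe sets of 45037 tested and 8 genes of 18193. A probe set is a group of short array probes that together read 1 stretch of transcript. Tissue was dissected from interlimb somites of mouse embryos at E9.5. The dissection aimed at the hypaxial (ventrolateral) part of the dermomyotome, the epithelial layer of the somite that holds muscle progenitors. The study could not exclude migrating neural crest cells, and markers of further cell types are given below. Transcripts were read on Affymetrix mouse genome arrays. There were 3 groups of 3 arrays each, 9 in all, and each sample was pooled from many embryos and sorted by fluorescence of green fluorescent protein (GFP).

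The first group was GFP positive cells of Pax3PAX3-FKHR/GFP embryos, called PAX3-FKHR/GFP here. In these, one Pax3 allele carried GFP and the other a floxed PAX3-FKHR-IRESnlacZ sequence switched on by PGK-Cre, a Cre driven by the broadly active PGK promoter. PAX3-FKHR joins the DNA binding domain of Pax3 to the strong activation domain of FKHR and is a gain of function form of Pax3, so these cells had no unmodified Pax3 allele. The second group was GFP positive cells of Pax3GFP/+ embryos, called GFP/+ here, which had a single unmodified Pax3 allele. The third group was the GFP negative (GFP-) cells of the same region. The labels give no Pax3 genotype for the GFP- cells. The study's results and its statistical methods name Pax3GFP/+ embryos for them, while its array methods list a Pax3+/+ group. The targeted Pax3 lines were on a C57BL6/DBA2 background, and whether the GFP/+ embryos carried PGK-Cre is not given in the sources used here.

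FGF ligands bind receptor tyrosine kinases on the cell surface, together with heparan sulfate chains of proteoglycans, and the receptors pass the signal through Ras and ERK kinases. ERK activity switches on genes of the ETS factors Etv4 and Etv5 and of inhibitors such as Sprouty and Dusp proteins, which dampen the same pathway. In the somite, FGF signals take part in the choice of muscle progenitors between renewal and entry into the myogenic programme, and Fgfr4 is the receptor gene best known from muscle progenitors.

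In PAX3-FKHR/GFP cells 1 of 2 probe sets of the ligand gene Fgf5, the single one of Fgf8 and 1 of 5 of the receptor gene Fgfr4 rose relative to GFP/+ cells, by 3.89-fold, 2.76-fold and 1.98-fold. The Fgf5 and Fgf8 folds are set against GFP/+ values below the array medians, and no detection call was used here. Fgfr3 fell to 0.673 of the GFP/+ level on 1 of 2 probe sets, a call lost in 4 of 6 fits with 1 sample left out. The genes that separated GFP/+ from GFP- cells were others, apart from Fgfr3. Fgf18 was 3.82-fold higher in GFP/+ cells, whereas 1 probe set each of Fgf9, Fgfr2 and Fgfr3 was lower in them than in GFP- cells. No probe set of Fgfr1 passed the test in any comparison. All values are log2 values after RMA (Robust Multichip Analysis), on which a difference of 1 is a doubling. A probe set was called where limma's adjusted p over all 45037 probe sets was under 0.05 and the log2 difference was at least 0.5, or 1.41-fold. Errors of differences are SE and n = 3 against 3 throughout.

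The arrays were alike, with medians between 4.63 and 4.68 and within-group correlations of at least 0.996. The Pax3 probe set 1420389_at read 8.25, 8.31 and 8.30 in PAX3-FKHR/GFP, 9.06, 9.29 and 9.24 in GFP/+ and 4.48, 4.82 and 4.20 in GFP- cells, and which part of Pax3 its probes read is not given in the sources used here. Of 10 measured dermomyotome markers 10 were higher in GFP/+ than in GFP- cells, and so were 8 of 9 myotome, 5 of 6 sclerotome and 5 of 6 neural crest markers. Pax3 is among the 10, and the cells were sorted on GFP from its targeted allele. Of all genes 1.92% were called higher and 5.05% lower in this comparison. GFP- cells were the higher group for 5 of 8 markers of surface ectoderm and apical ridge, 4 of 4 of primitive red cells, 6 of 8 of lateral and intermediate mesoderm and 4 of 6 of endothelium. Of 7 neural tube markers 3 were higher in GFP- cells and 1 was higher in GFP/+ cells. The neural tube list summed to 2317 to 2444 in GFP- and 1996 to 2027 in GFP/+ cells.

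Between PAX3-FKHR/GFP and GFP/+ cells, the summed linear level of some marker lists differed as well. The myotome list summed to 1635 to 1901 in PAX3-FKHR/GFP and 3164 to 3424 in GFP/+ cells, and 7 of its 9 genes fell while 1 rose. The neural crest list summed to 2880 to 3397 and 2433 to 2561 in the same 2 groups, with 1 of 6 genes higher, and the dermomyotome list to 5498 to 6782 and 5110 to 5176, with 4 of 10 higher and 2 lower. The sclerotome list summed to 1617 to 1918 in PAX3-FKHR/GFP and 2122 to 2210 in GFP/+ cells (1 of 6 higher, 2 lower), the primitive red cell list to 1891 to 2210 and 1355 to 1420 (1 of 4 higher, Hbb-y) and the lateral and intermediate mesoderm list to 574 to 726 and 461 to 492 (1 of 8 higher, Prrx1). The neural tube list (1717 to 2071 and 1996 to 2027) and the endothelium list (413 to 448 and 420 to 458) overlapped between these groups, with 1 of 7 lower and 0 of 6 called. The surface ectoderm and apical ridge list summed to 444 to 504 in PAX3-FKHR/GFP and 444 to 468 in GFP/+ cells, with 0 of 8 genes called, and Cdh1, Trp63, Sp8 and Dlx5 lay below the array median in both. The part of such cells in the results below was not tested. In a bulk sample, fewer cells of a type and less RNA per cell cannot be told apart.

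**Figure D1:**
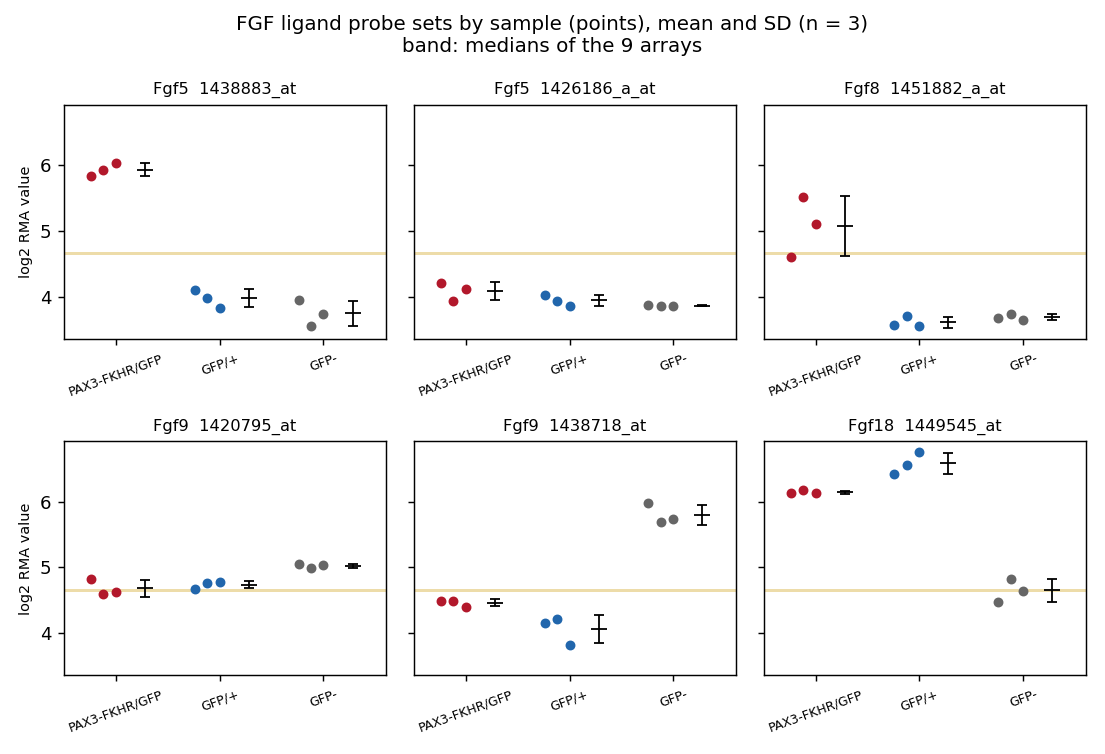
Log2 RMA values of the 6 FGF ligand probe sets in each of the 9 samples, with PAX3-FKHR/GFP, GFP/+ and GFP- cells from left to right in each panel. Points are samples, black bars are the mean and SD of 3 samples, and the yellow band spans the medians of the 9 arrays, 4.63 to 4.68. Fgf5 1438883_at and Fgf8 stood apart in PAX3-FKHR/GFP cells, Fgf18 was low in GFP- cells and Fgf9 1438718_at was high in them.

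Fgf5 encodes a secreted ligand known for ending the growth phase of the hair cycle. On its probe set 1438883_at the values were 5.84, 5.94 and 6.03 in PAX3-FKHR/GFP cells, 4.11, 3.99 and 3.84 in GFP/+ cells and 3.94, 3.56 and 3.74 in GFP- cells. All 3 PAX3-FKHR/GFP samples lay above the array medians and all 6 others below them, and the 2 groups without the fusion overlapped. Relative to GFP/+ cells Fgf5 rose by 1.96 ± 0.10 (limma, adjusted p = 5.6e-06), a 3.89-fold difference with a 95% interval of 3.33 to 4.55. Against GFP- cells the difference was 2.19 ± 0.11 (limma, adjusted p = 1.43e-07). GFP/+ minus GFP- gave 0.23 ± 0.11, which did not pass (limma, adjusted p = 0.302), with a 95% interval of -0.021 to 0.48.

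The other Fgf5 probe set, 1426186_a_at, showed no such pattern. It read 4.21, 3.94 and 4.12 in PAX3-FKHR/GFP, 4.03, 3.94 and 3.87 in GFP/+ and 3.87, 3.87 and 3.86 in GFP- cells, below every array median. Its difference between PAX3-FKHR/GFP and GFP/+ cells was 0.14 ± 0.099 (limma, adjusted p = 0.722) with a 95% interval of -0.076 to 0.36, so the interval ended below the lower bound of 1.73 found with 1438883_at.

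Promoter windows are printed for the genes with a called difference between PAX3-FKHR/GFP and GFP/+ cells, so that the letters Pax3 is known to bind can be looked for next to the values. Each holds the 250 bases before a RefSeq gene start on build GRCm38.p6. Such windows were given for 6 of the 8 genes, 7 in all, and Fgf8 and Fgfr1 were not among them. Capitals mark ATTA, the core read by the Pax3 homeodomain, and GTTCC and GTCAC, short cores read by paired domains, on either strand (TAAT, GGAAC and GTGAC on the other strand). Of 32851 windows of the same length 54.9% hold ATTA, 40.3% GTTCC and 39.8% GTCAC, so that a match is common. Among the windows not printed, those of Fgf9 and Fgfr2, genes without a call in this comparison, hold 2 ATTA each. The Fgf18 window holds none of the letters searched. The Fgf5 window, chr5:98253934-98254183 on the plus strand, is 70.8% G and C and holds 1 GTCAC in its reverse form.
Fgf5 promoter: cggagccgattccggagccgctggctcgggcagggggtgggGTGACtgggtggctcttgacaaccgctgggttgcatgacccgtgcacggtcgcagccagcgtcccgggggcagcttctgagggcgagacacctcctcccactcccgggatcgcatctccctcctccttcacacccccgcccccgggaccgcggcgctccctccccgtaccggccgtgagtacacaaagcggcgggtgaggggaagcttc

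Fgf8 encodes the ligand made by the apical ectodermal ridge of the limb bud and by the unsegmented mesoderm at the tail end of the embryo. Its single probe set, 1451882_a_at, gave 4.60, 5.51 and 5.10 in PAX3-FKHR/GFP cells, 3.56, 3.71 and 3.55 in GFP/+ cells and 3.68, 3.74 and 3.65 in GFP- cells. The PAX3-FKHR/GFP samples were all higher but spread over nearly a whole log2 unit (SD 0.46), with replicate 1 just under its array median, while the other 6 samples lay close together below it. Fgf8 rose by 1.46 ± 0.19 relative to GFP/+ cells (limma, adjusted p = 0.00189), a 2.76-fold difference with a 95% interval of 2.07 to 3.67. The call held with each of the 6 samples left out in turn, at adjusted p of 0.00102 to 0.0295. Relative to GFP- cells the difference was 1.38 ± 0.18 (limma, adjusted p = 0.000391). GFP/+ and GFP- cells differed by -0.083 ± 0.077 (limma, adjusted p = 0.619), with a 95% interval of -0.25 to 0.090.

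Fgf9 encodes a ligand known from the lung, the testis and the limb skeleton, and its probe sets 1438718_at and 1420795_at pointed the same way against GFP- cells with unequal size. On 1438718_at the values were 4.49, 4.49 and 4.40 in PAX3-FKHR/GFP cells, 4.16, 4.21 and 3.83 in GFP/+ cells and 5.98, 5.69 and 5.74 in GFP- cells. The GFP- samples were the only ones above the array medians. The differences were -1.74 ± 0.12 for GFP/+ minus GFP- (limma, adjusted p = 7.99e-06) and -1.34 ± 0.097 for PAX3-FKHR/GFP minus GFP- (limma, adjusted p = 3.04e-06), or 0.300 and 0.394 of the GFP- level. PAX3-FKHR/GFP and GFP/+ cells did not overlap on this probe set, but the difference of 0.39 ± 0.11 did not pass (limma, adjusted p = 0.164).

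On the Fgf9 probe set 1420795_at, all samples lay nearer to each other. It read 4.82, 4.60 and 4.63 in PAX3-FKHR/GFP, 4.68, 4.76 and 4.78 in GFP/+ and 5.05, 4.99 and 5.04 in GFP- cells. GFP- cells were again above both other groups, by a difference under the limit of 0.5: -0.29 ± 0.077 for GFP/+ minus GFP- (limma, adjusted p = 0.0498) and -0.34 ± 0.092 for PAX3-FKHR/GFP minus GFP- (limma, adjusted p = 0.0399).

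Fgf18, a ligand gene known from skeletal growth, ran the other way. On 1449545_at it read 6.13, 6.17 and 6.13 in PAX3-FKHR/GFP cells, 6.43, 6.56 and 6.76 in GFP/+ cells and 4.47, 4.83 and 4.65 in GFP- cells. Both GFP positive groups stood far above the GFP- samples, and the PAX3-FKHR/GFP samples lay just under the lowest GFP/+ sample. The dermomyotome list, for comparison, summed to 5498 to 6782, 5110 to 5176 and 691 to 734 in these groups. In the same order the myotome list summed to 1635 to 1901, 3164 to 3424 and 1146 to 1208. The sclerotome list summed to 1617 to 1918, 2122 to 2210 and 449 to 469. The neural crest list summed to 2880 to 3397, 2433 to 2561 and 815 to 858. The part of any such cells in the Fgf18 level was not tested. Fgf18 was higher by 1.93 ± 0.11 in GFP/+ than in GFP- cells (limma, adjusted p = 2.24e-06), a 3.82-fold difference with a 95% interval of 3.20 to 4.56. In PAX3-FKHR/GFP cells it was higher by 1.49 ± 0.10 than in GFP- cells (limma, adjusted p = 1.47e-06). The step between the GFP positive groups, -0.44 ± 0.096, did not pass (limma, adjusted p = 0.0519). Without GFP/+ replicate 1 it was -0.52 and passed (limma, adjusted p = 0.0407).

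**Figure D2:**
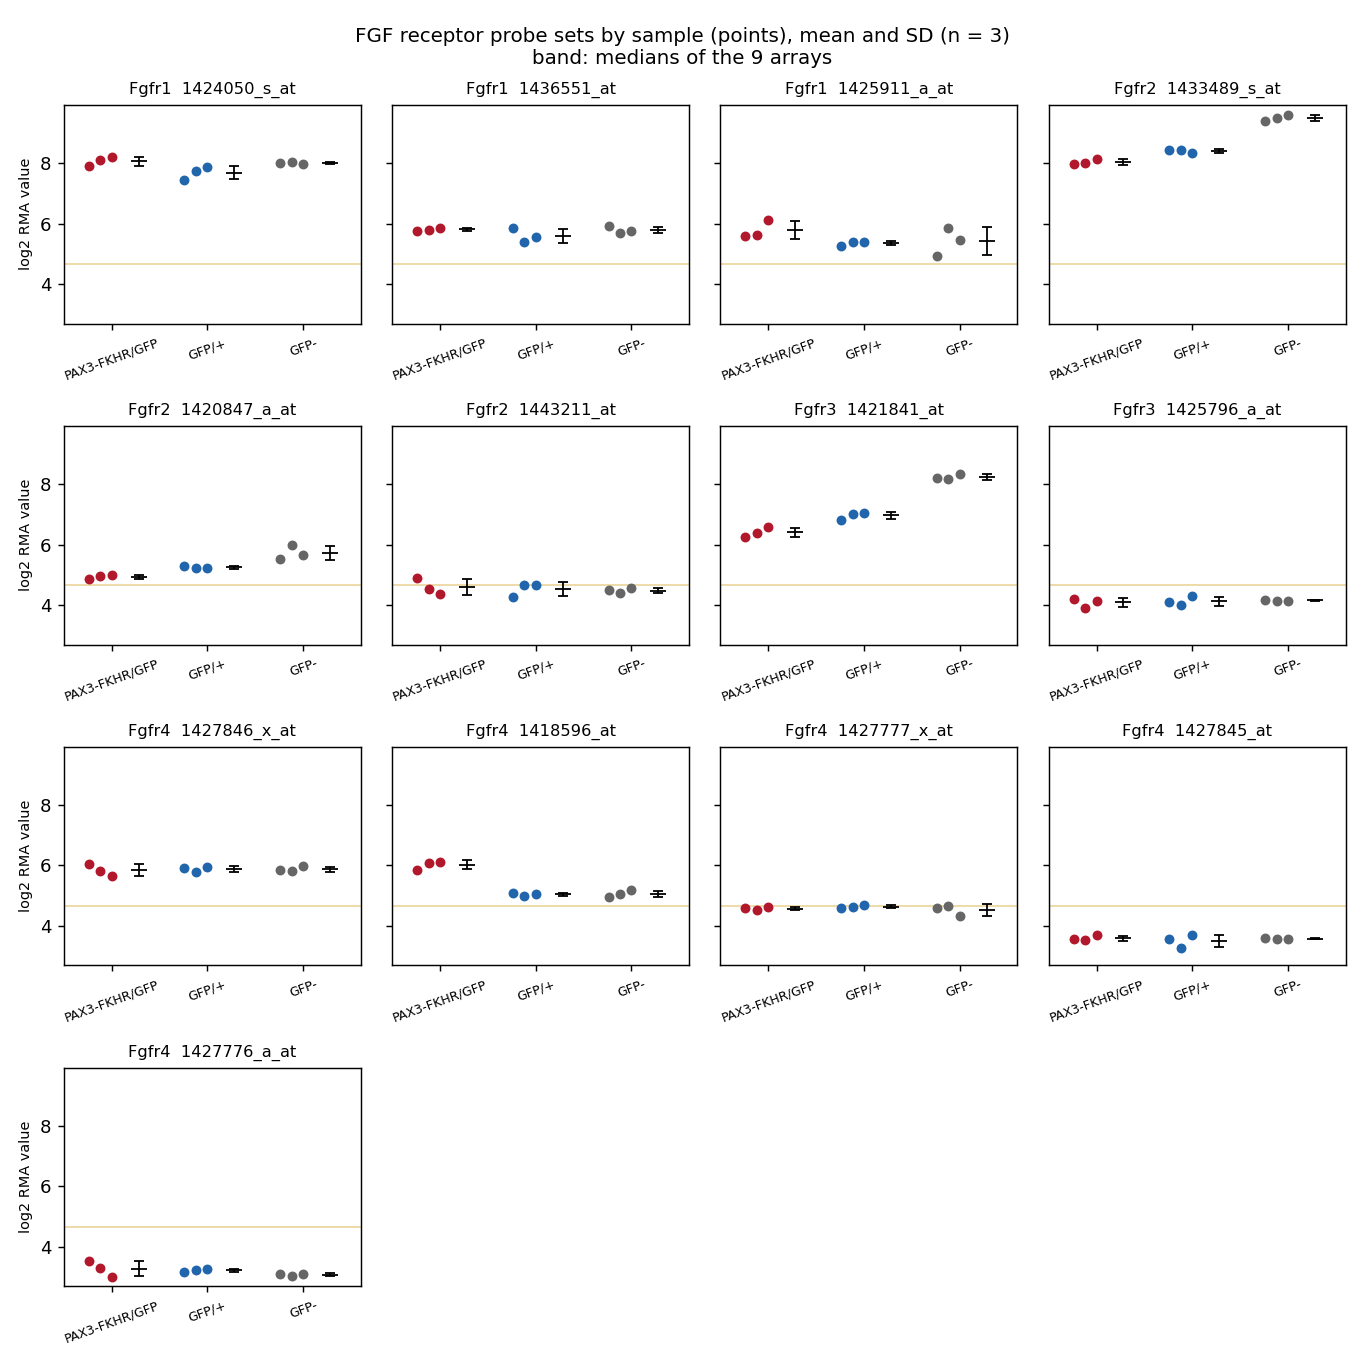
Log2 RMA values of the 13 FGF receptor probe sets in each of the 9 samples, with PAX3-FKHR/GFP, GFP/+ and GFP- cells from left to right in each panel. Points are samples, black bars are the mean and SD of 3 samples, and the yellow band spans the array medians, 4.63 to 4.68. Fgfr2 1433489_s_at and Fgfr3 1421841_at were lowest in PAX3-FKHR/GFP and highest in GFP- cells, and of 5 Fgfr4 probe sets only 1418596_at stood apart in PAX3-FKHR/GFP cells.

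Fgfr1, the receptor gene needed in early mesoderm, had 3 probe sets. On 1424050_s_at the values were 7.91, 8.10 and 8.21 in PAX3-FKHR/GFP cells, 7.46, 7.73 and 7.89 in GFP/+ cells and 8.03, 8.05 and 7.98 in GFP- cells. The lowest PAX3-FKHR/GFP sample lay just above the highest GFP/+ sample, and the GFP- samples lay among the PAX3-FKHR/GFP samples. PAX3-FKHR/GFP minus GFP/+ was 0.38 ± 0.12 (limma, adjusted p = 0.225), GFP/+ minus GFP- was -0.33 ± 0.10 (limma, adjusted p = 0.0838) and PAX3-FKHR/GFP minus GFP- was 0.054 ± 0.087 (limma, adjusted p = 0.82).

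On the other Fgfr1 probe sets, PAX3-FKHR/GFP minus GFP/+ was 0.21 ± 0.12 for 1436551_at and 0.44 ± 0.13 for 1425911_a_at, and neither passed (limma, adjusted p = 0.619 and 0.21). All 3 Fgfr1 differences were above 0 in this comparison, with 95% intervals that together ran from -0.049 to 0.73. Fgfr1 1425911_a_at spread widely in GFP- cells, at 4.92, 5.86 and 5.46, and its values there spanned those of GFP/+ cells (5.26, 5.37 and 5.38).

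Fgfr2, whose product receives FGF signals in epithelia such as limb ectoderm, was highest in GFP- cells. On 1433489_s_at it read 7.97, 8.03 and 8.16 in PAX3-FKHR/GFP cells, 8.46, 8.45 and 8.35 in GFP/+ cells and 9.40, 9.51 and 9.62 in GFP- cells. The 3 groups did not overlap. Beside this, the lateral and intermediate mesoderm list summed to 574 to 726, 461 to 492 and 2056 to 2110 in the same order of groups. The surface ectoderm and apical ridge list summed to 444 to 504, 444 to 468 and 3262 to 3459. The primitive red cell, endothelium and neural tube lists were also highest in GFP- cells, at 35867 to 36107, 651 to 709 and 2317 to 2444. The part of any such cells in the Fgf9, Fgfr2 and Fgfr3 levels was not tested. GFP/+ minus GFP- was -1.09 ± 0.067 (limma, adjusted p = 3.25e-06) and PAX3-FKHR/GFP minus GFP- was -1.46 ± 0.084 (limma, adjusted p = 4.41e-07). PAX3-FKHR/GFP minus GFP/+ was -0.36 ± 0.081, which passed neither limit (limma, adjusted p = 0.0557).

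The Fgfr2 probe set 1420847_a_at gave the same order on smaller steps. Values were 4.86, 4.95 and 4.98 in PAX3-FKHR/GFP, 5.30, 5.21 and 5.21 in GFP/+ and 5.53, 5.98 and 5.66 in GFP- cells, again with no overlap. PAX3-FKHR/GFP cells were below GFP- cells by a called difference, -0.79 ± 0.11 (limma, adjusted p = 0.000808). GFP/+ minus GFP- was -0.49 ± 0.11 (limma, adjusted p = 0.023), under the limit of 0.5, and was called at -0.52 without GFP/+ replicate 1 and at -0.58 without GFP- replicate 1. The third Fgfr2 probe set, 1443211_at, had group means of 4.59, 4.52 and 4.47 in PAX3-FKHR/GFP, GFP/+ and GFP- cells, near or below the array medians, and its groups overlapped in every comparison.

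Fgfr3, whose product restrains growth of cartilage, was the only one of the 8 genes with a call in all 3 comparisons. On 1421841_at it read 6.27, 6.37 and 6.57 in PAX3-FKHR/GFP cells, 6.83, 7.02 and 7.06 in GFP/+ cells and 8.23, 8.17 and 8.35 in GFP- cells. The groups formed 3 separate steps. PAX3-FKHR/GFP minus GFP/+ was -0.57 ± 0.10 (limma, adjusted p = 0.0175), with a 95% interval of 0.575 to 0.788 of the GFP/+ level. Of the 6 samples, leaving out replicate 1 or 2 of the PAX3-FKHR/GFP cells, or 2 or 3 of the GFP/+ cells, ended this call, at differences of -0.50 to -0.56 and adjusted p of 0.0725 to 0.139.

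The larger step of Fgfr3 lay between the GFP positive groups and GFP- cells. GFP/+ minus GFP- was -1.28 ± 0.080 (limma, adjusted p = 3.66e-06) and PAX3-FKHR/GFP minus GFP- was -1.85 ± 0.093 (limma, adjusted p = 1.4e-07), or 0.412 and 0.277 of the GFP- level. Fgfr3 1425796_a_at, by contrast, had means of 4.07, 4.11 and 4.14 in PAX3-FKHR/GFP, GFP/+ and GFP- cells, below the array medians, with 95% intervals of its 3 differences between -0.29 and 0.20. Fgfr3 has 2 RefSeq starts with a window. Both are shown because Fgfr3 was the gene called lower in PAX3-FKHR/GFP cells. The first, chr5:33721474-33721723 on the plus strand, is 66.8% G and C and holds none of the letters searched, and the second, chr5:33722056-33722305 on the plus strand, is 72.8% G and C and holds 1 GTTCC in its reverse form.
Fgfr3 promoter, first start: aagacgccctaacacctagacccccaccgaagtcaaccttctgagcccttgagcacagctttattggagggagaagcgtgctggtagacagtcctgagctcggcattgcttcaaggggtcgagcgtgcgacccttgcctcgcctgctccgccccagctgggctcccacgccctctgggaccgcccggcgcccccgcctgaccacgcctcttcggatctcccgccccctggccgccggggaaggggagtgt
Fgfr3 promoter, second start: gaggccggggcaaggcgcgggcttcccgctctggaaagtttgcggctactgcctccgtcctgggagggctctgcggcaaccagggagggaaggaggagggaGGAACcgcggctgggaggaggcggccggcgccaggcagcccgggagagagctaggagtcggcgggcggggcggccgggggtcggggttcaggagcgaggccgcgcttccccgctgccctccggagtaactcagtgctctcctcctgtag

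Fgfr4, the receptor gene of muscle progenitors, had 5 probe sets that did not read alike. On 1418596_at the values were 5.84, 6.10 and 6.12 in PAX3-FKHR/GFP cells, 5.07, 4.98 and 5.06 in GFP/+ cells and 4.97, 5.06 and 5.17 in GFP- cells. All PAX3-FKHR/GFP samples were higher than the 6 others, among which GFP/+ and GFP- cells overlapped. Fgfr4 rose by 0.98 ± 0.099 relative to GFP/+ cells (limma, adjusted p = 0.000393), a 1.98-fold difference with a 95% interval of 1.70 to 2.30. Relative to GFP- cells the difference was 0.96 ± 0.10 (limma, adjusted p = 6.84e-05). GFP/+ minus GFP- was -0.028 ± 0.084 (limma, adjusted p = 0.897), with a 95% interval of -0.22 to 0.16, while 10 of 10 dermomyotome markers were higher in GFP/+ cells.

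The 4 other Fgfr4 probe sets passed in no comparison. The one with the highest mean, 1427846_x_at, read 6.05, 5.81 and 5.66 in PAX3-FKHR/GFP, 5.93, 5.78 and 5.96 in GFP/+ and 5.84, 5.82 and 5.98 in GFP- cells, so that all groups overlapped. PAX3-FKHR/GFP minus GFP/+ was -0.046 ± 0.11 on it (limma, adjusted p = 0.95). For Fgfr4 1427777_x_at, 1427845_at and 1427776_a_at this difference was -0.061, 0.080 and 0.058. Their means over the 9 samples were 4.57, 3.55 and 3.18, below the array medians, and whether they could show a rise was not tested. The 95% intervals of all 4 other Fgfr4 probe sets ended at or below 0.32, under the lower bound of 0.76 found with 1418596_at. Endings of the form _x_at mark probe sets whose probes may also bind transcripts of other genes. Taking the brightest probe set of each gene in place of each one separately would have left Fgfr4 uncalled. The Fgfr4 window, chr13:55152568-55152817 on the plus strand, is 64% G and C and holds 1 GTTCC in its reverse form.
Fgfr4 promoter: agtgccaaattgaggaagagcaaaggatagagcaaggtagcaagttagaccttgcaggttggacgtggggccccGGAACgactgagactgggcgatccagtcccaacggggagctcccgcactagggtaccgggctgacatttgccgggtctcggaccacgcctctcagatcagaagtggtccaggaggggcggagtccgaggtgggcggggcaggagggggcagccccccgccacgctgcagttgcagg

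**Figure D3:**
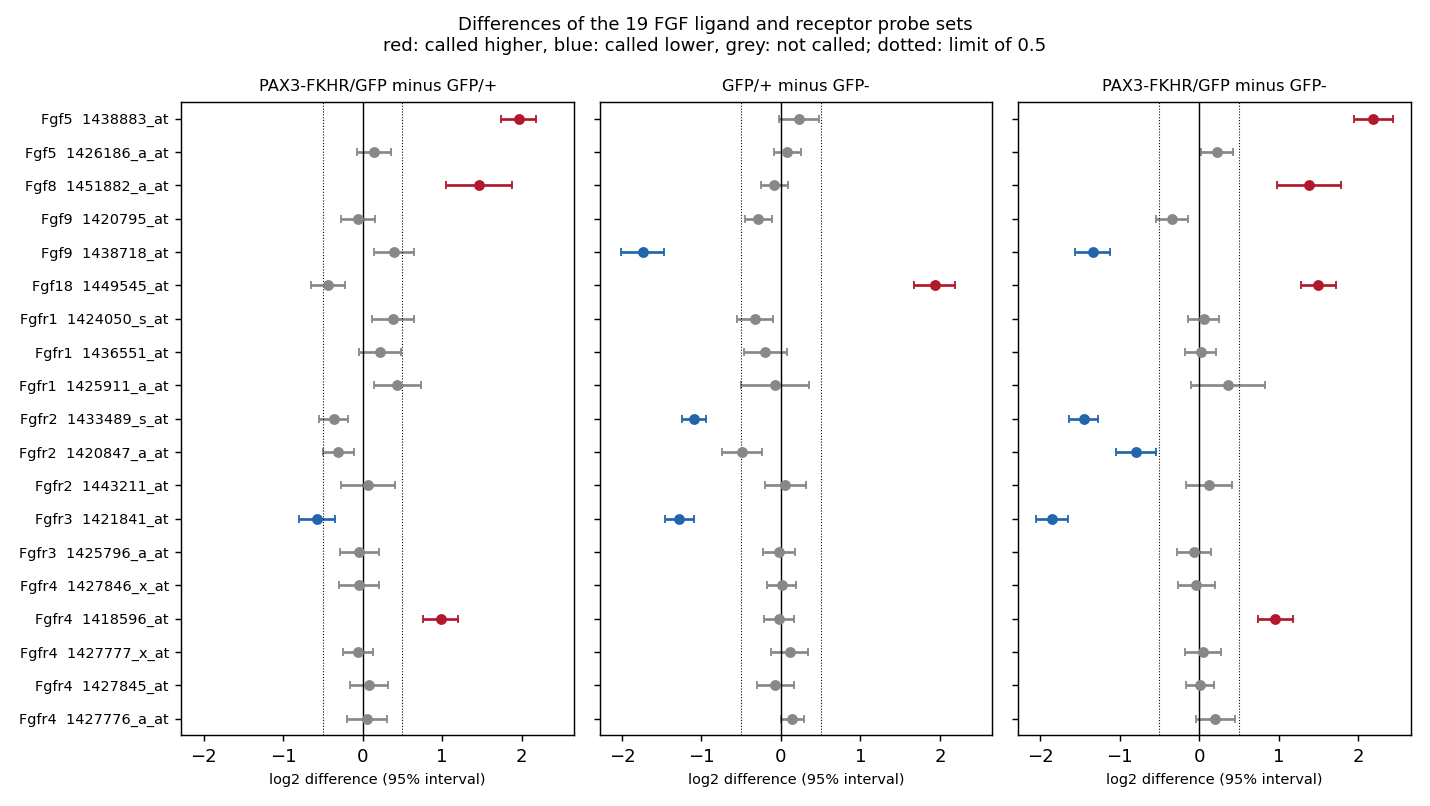
Log2 differences of the 19 FGF ligand and receptor probe sets in the 3 comparisons, with bars for the 95% interval of limma and dotted lines at the limit of 0.5 in each direction. Red points were called higher, blue points called lower and grey points not called. Fgf5, Fgf8 and Fgfr4 1418596_at were higher in PAX3-FKHR/GFP cells against either other group, and Fgfr3 1421841_at was lower in the first-named group in all 3.

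Counted over the probe sets, 4 of 19 were called between PAX3-FKHR/GFP and GFP/+ cells, 3 higher and 1 lower, where 1.36% of all probe sets were called, 0.884% higher and 0.473% lower. The groups did not overlap in 10 of the 19, against 13.1% of all probe sets. Between GFP/+ and GFP- cells 4 of 19 were called, 1 higher and 3 lower, where 4.65% of all were called, 1.42% higher and 3.24% lower, and 8 of 19 did not overlap, against 23% of all. PAX3-FKHR/GFP minus GFP-, which was no comparison of the study, gave 8 of 19, 4 higher and 4 lower, where 5.35% of all were called, 1.99% higher and 3.36% lower, and 10 of 19 did not overlap, against 21.5%. The median difference of the 19 was 0.066, -0.069 and 0.047 in these comparisons, beside -0.0040, 0.023 and 0.018 over all probe sets. The comparisons share groups of samples, and probe sets of a gene share its transcript, so these counts are not independent of each other.

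Of 6 ligand probe sets 2 were called higher and 0 lower in PAX3-FKHR/GFP relative to GFP/+ cells, and of 13 receptor probe sets 1 was higher and 1 lower. Between GFP/+ and GFP- cells 1 ligand probe set was higher and 1 lower, while 0 receptor probe sets were higher and 2 lower. The first count of 4 fell to 2 under a limit of 1 on the log2 difference, which kept Fgf5 and Fgf8. It also fell to 2 when probe sets with a mean under the median of all were left out, which kept Fgfr4 and Fgfr3 and left Fgf5 and Fgf8 untested.

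The order of the group levels took 3 forms. For Fgf5, Fgf8 and Fgfr4 1418596_at, PAX3-FKHR/GFP cells came first and the order of GFP/+ and GFP- cells was within their spread. For Fgf18, GFP/+ and PAX3-FKHR/GFP cells, which did not differ by a called step, came before GFP- cells. For Fgf9 1438718_at and Fgfr2 1433489_s_at, GFP- cells came first and the step between the GFP positive groups was not called, and Fgfr3 1421841_at had GFP- cells first, GFP/+ cells next and PAX3-FKHR/GFP cells last.

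Likeness to other genes was measured with Pearson's r over the 9 samples, among 689 genes whose group means differed by at least 1, with the brightest probe set of each. The r values mostly restate the 3 group levels and are given as a description. Fgf5 was most like Egr2 (r = 0.993), Wscd1 (0.991) and Cdc42ep3 (0.985). Fgf8 was most like Npr3 (0.963), Pmaip1 (0.961) and Shb (0.960). Fgf18 was most like Cnp (0.994), Pax3 itself (0.993) and Tnnt1 (0.992). The nearest genes to Fgfr2 were Hoxa9 (0.994), Sfrp1 (0.994) and Adcyap1r1 (0.993), and those to Fgfr3 were Adcyap1r1 (0.996), Sfrp1 (0.992) and Fgfr2 (0.990). Fgf9, Fgfr1 and Fgfr4 had group means within 0.5 of each other on their brightest probe sets and were given no such neighbours.

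Further along the pathway, 68 of 75 listed genes were measured, each by its brightest probe set. Between PAX3-FKHR/GFP and GFP/+ cells 5 of the 68 were called, all higher, where 2.02% of all genes were called, 1.31% higher and 0.715% lower. All 5 were among the 13 measured feedback inhibitors and ETS effectors, whose median difference was 0.46, beside -0.0015 over all genes. The list was drawn up with earlier results of these data known, so that its count is not independent evidence of its direction. From its screen the study had named Spry1, Spry4, Spred1, Dusp4, Etv1 and Etv2 as up in somites, limbs or both. It had also named Fgf5 and Fgfr4 as up and Fgfr3 as down, and it cites earlier work that had shown direct regulation of Fgfr4 by Pax3. Here Spry4, Spred1 and Etv2 were not called, and Etv1 was not measured. Spry4 and Spred1 lay above 0, at 0.46 ± 0.12 and 0.36 ± 0.087 (limma, adjusted p = 0.124 and 0.0855). Etv2 was at -0.13 ± 0.079 (limma, adjusted p = 0.646).

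Spry1, which encodes an intracellular inhibitor of receptor tyrosine kinase signalling, averaged 10.1 in PAX3-FKHR/GFP and 8.51 in GFP/+ cells and rose by 1.62 ± 0.088 (limma, adjusted p = 7e-06). Etv5, an ETS factor gene switched on by FGF signals, averaged 8.18 in PAX3-FKHR/GFP and 6.60 in GFP/+ cells and rose by 1.58 ± 0.096 (limma, adjusted p = 1.22e-05). Il17rd, which encodes the membrane-bound FGF antagonist Sef, averaged 10.2 in PAX3-FKHR/GFP and 8.89 in GFP/+ cells and rose by 1.28 ± 0.10 (limma, adjusted p = 9.4e-05). These held with every sample left out in turn, and so did Dusp4, a nuclear phosphatase gene of ERK, at 0.90 ± 0.086 (limma, adjusted p = 0.000256). Etv4 lay at the limit, at 0.50 ± 0.10 (limma, adjusted p = 0.0335), and lost its call with any 1 of the 6 samples left out.

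**Figure D4:**
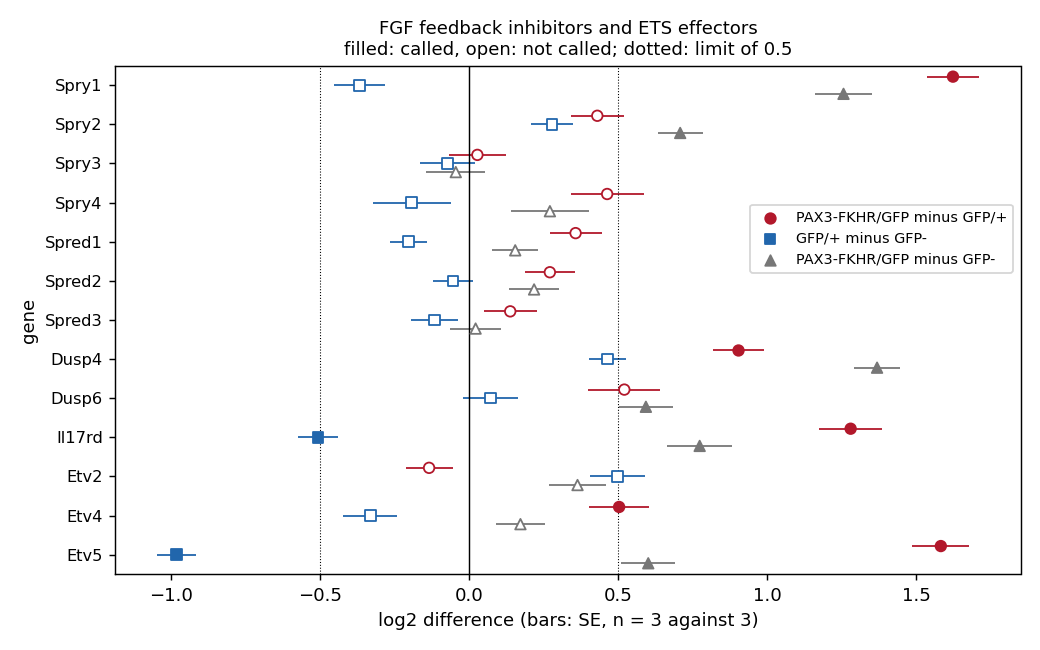
Log2 differences of the 13 measured FGF feedback inhibitor and ETS effector genes in the 3 comparisons, with SE bars (n = 3 against 3), filled symbols for called genes and dotted lines at the limit of 0.5. Spry1, Dusp4, Il17rd, Etv4 and Etv5 were called higher with the fusion when set against GFP/+ cells, and Il17rd and Etv5 were called lower in GFP/+ than in GFP- cells.

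In the same list Etv5 and Il17rd were lower in GFP/+ than in GFP- cells, by -0.98 ± 0.067 and -0.51 ± 0.068 (limma, adjusted p = 6.52e-06 and 0.000929), and 0 of the 13 were higher. The Il17rd call ended without GFP/+ replicate 3 or GFP- replicate 3. Relative to GFP- cells, PAX3-FKHR/GFP cells had 6 of the 13 higher and 0 lower, with Dusp4 at 1.37 ± 0.078, Spry1 at 1.26 ± 0.095, Il17rd at 0.77 ± 0.11, Spry2 at 0.71 ± 0.076 and Etv5 at 0.60 ± 0.091 (limma, adjusted p = 4.06e-07, 4.56e-06, 0.000713, 7.85e-05 and 0.00119). The sixth was the ERK phosphatase gene Dusp6, at 0.59 ± 0.092 (limma, adjusted p = 0.00135), whose call ended when replicate 3 of the PAX3-FKHR/GFP cells was left out. Thus Etv5 was above GFP- cells in PAX3-FKHR/GFP cells and below them in GFP/+ cells.

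Of 18 other FGF ligand genes 0 were called between PAX3-FKHR/GFP and GFP/+ cells, at a median of -0.031, and the same held for 25 co-receptor and heparan sulfate genes, at -0.018, and 12 of 18 listed relay genes that were measured, at -0.0089. The study lists Fgf12 and Sulf1 as up with the fusion in somites, limbs or both. On their brightest probe sets they read 0.32 ± 0.13 and -0.25 ± 0.094 here, and neither passed (limma, adjusted p = 0.386 and 0.352). Other probe sets of the pathway genes were not read on their own. None of the 12 relay genes was called in any comparison. Between GFP/+ and GFP- cells 4 of the 68 pathway genes were higher and 6 lower, where 6.96% of all genes were called, 1.92% higher and 5.05% lower. Among them Fgf6, a ligand gene of myogenic cells, was higher in GFP/+ cells by 0.79 ± 0.11 (limma, adjusted p = 0.000967). It averaged 4.54 in GFP/+ and 3.75 in GFP- cells, both below the array medians.

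Of the 25 surface genes, 3 were higher and 4 lower in GFP/+ than in GFP- cells. The adhesion molecule gene Ncam1 and the genes Flrt1 and Flrt3, whose products bind FGF receptors, were higher by 0.59 ± 0.065, 0.54 ± 0.086 and 0.52 ± 0.072 (limma, adjusted p = 0.000234, 0.00268 and 0.00109). The proteoglycan gene Sdc4 was lower by the widest margin of these 7, at -1.23 ± 0.11 (limma, adjusted p = 6.61e-05). The sulfotransferase gene Hs6st1, the glypican gene Gpc4 and the sulfatase gene Sulf1 were lower too, at -0.78 ± 0.098, -0.65 ± 0.11 and -0.57 ± 0.077 (limma, adjusted p = 0.000608, 0.00464 and 0.0010). The Flrt1 call ended without GFP/+ replicate 1, that of Flrt3 without GFP/+ replicate 1 or 3 or GFP- replicate 2, and that of Sulf1 without GFP/+ replicate 3.

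Relative to GFP- cells, PAX3-FKHR/GFP cells had 8 of the 68 genes higher and 4 lower, where 7.83% of all genes were called, 2.63% higher and 5.2% lower. Beside the 6 feedback genes, Flrt1 and the proteoglycan gene Sdc3 were higher, by 0.93 ± 0.097 and 0.73 ± 0.091 (limma, adjusted p = 6.43e-05 and 0.000276). Sdc4, Sulf1, Gpc4 and Hs6st1 were lower, at -1.02 ± 0.11, -0.82 ± 0.075, -0.58 ± 0.099 and -0.55 ± 0.087 (limma, adjusted p = 0.000114, 2.39e-05, 0.00266 and 0.00168). The Gpc4 call ended when replicate 1 of the PAX3-FKHR/GFP cells was left out, and that of Hs6st1 when replicate 2 of these cells or replicate 3 of the GFP- cells was.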

How the data were processed

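The authors deposited log2 expression values made with RMA, in which background is corrected, intensity distributions are equalized over arrays and probes are joined into 1 value per probe set. Its version is not given in the sources used here, and a shift of all transcripts in a group would not be seen. Amplification was by a two-cycle system that reads transcripts from the 3′ end. The labels' treatment text speaks of forelimb buds, while titles, source and tissue give interlimb somites, and somites were used. Of 45101 probe sets, 64 controls were left out. The platform annotation gave 34945 a single gene symbol, 932 several and 9160 none.

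Each comparison was fitted on its 6 samples with limma 3.58.1 (lmFit, eBayes with trend) in R 4.3.3, with Benjamini-Hochberg adjustment over 45037 probe sets, and tested on simulated data. The study's absent-call filter was not applied. A local pooled error (LPE) test, the kind the study used, was an alternative, in a version written for this work rather than the study's software. The study calls the replicates biological. The number of arrays limits the precision. The members, gene lists and alternatives were chosen with earlier results of these data known. Every member probe set is named. Of other pathway genes those called are named, at most 5 per list and direction, and Dusp6, sixth by size, was added after its values were seen. Promoter windows came from RefSeq, GRCm38.p6.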

Additional observations from a re-analysis of the deposited data

How the results depend on the processing

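Of the differences of the 19 probe sets recomputed under the alternatives other than those of the fold limit, 809 kept their direction and their side of the threshold or stayed uncalled, 4 lost their call (Fgfr3 in PAX3-FKHR/GFP against GFP/+ cells, with 1 sample left out), 3 gained one (Fgf18 there, Fgfr2 1420847_a_at between GFP/+ and GFP- cells) and 0 turned a called sign. With a limit of 1 on the log2 difference, PAX3-FKHR/GFP minus GFP/+ gave 2 FGF ligand and receptor probe sets, 3 other pathway genes and 139 probe sets in all (611 with the limit of 0.5). It left 4 of the 19 called for GFP/+ minus GFP- and 6 for PAX3-FKHR/GFP minus GFP-, without Fgfr4 1418596_at and Fgfr2 1420847_a_at. The same limit gave 1 pathway gene and 794 probe sets for GFP/+ minus GFP- (against 10 and 2095), and 3 and 885 for PAX3-FKHR/GFP minus GFP- (against 12 and 2411). With no limit the 3 comparisons gave 4, 6 and 9 of the 19, with Fgf9 1420795_at added in the last 2 and Fgfr2 1420847_a_at in GFP/+ minus GFP-. With no limit, GFP/+ minus GFP- also gave 20 pathway genes and 3947 probe sets, and PAX3-FKHR/GFP minus GFP- gave 4029 probe sets. The mean over a gene's probe sets gave 4 pathway genes for GFP/+ minus GFP-. For PAX3-FKHR/GFP minus GFP/+ it gave 5 pathway genes higher and 1 lower. In that comparison 1 fit of all 9 samples gave 6 higher and 1 lower, and so did the setting with no fold limit. The filter at the median of all probe sets left 11 of the 19 to test and 2 called in PAX3-FKHR/GFP minus GFP/+.

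With single samples left out, PAX3-FKHR/GFP minus GFP/+ gave 3 to 5 of the 19, 4 to 5 pathway genes and 358 to 578 probe sets in all, with 358 without PAX3-FKHR/GFP replicate 2, 383 without GFP/+ replicate 2 and 386 without GFP/+ replicate 3. GFP/+ minus GFP- gave 4 to 5, 9 to 12 and 1963 to 2056, and PAX3-FKHR/GFP minus GFP- gave 8 throughout, 11 to 12 and 2267 to 2455. With the replicate number as a block the 3 comparisons gave 4, 4 and 8 of the 19, 5, 10 and 12 pathway genes and 603, 2122 and 2451 probe sets. Deviations of same-numbered samples from their group means correlated at -0.096 to 0.10 over the comparisons. Between GFP/+ and GFP- cells these values were 0.094, 0.062 and 0.0095, beside -0.092 to 0.033 for samples of unlike number. Deviations from a mean of 3 samples depend on each other, so they cannot decide whether same-numbered samples were paired. No background level was at hand, so how far signal over background limits the probe sets below the array medians was not tested. The causes of these shifts were not tested.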

Other observations

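Several member probe sets held the same value on different arrays. Fgf9 1438718_at read 4.49 to all 4 deposited decimals in PAX3-FKHR/GFP replicates 1 and 2, and Fgf18 read 6.13 in replicates 1 and 3. Fgfr2 1420847_a_at read 5.21 in GFP/+ replicates 2 and 3. Over all 45037 probe sets, 353 held 1 identical value in the 3 PAX3-FKHR/GFP samples, 395 in the 3 GFP/+ samples and 449 in the 3 GFP- samples.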
